A study of Mus musculus with 6 samples.

Results

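Integrins, laminins, type IV collagens, the dystroglycan complex and the cytoplasmic proteins that couple them to actin were examined in sorted mouse parietal cells. The genes were chosen by symbol from the deposited table: every integrin chain, laminin chain and type IV collagen chain, and a fixed set of named partners from Dag1 to Agrn. This found 57 of the 23284 genes. One named partner, Tns2, had no row under that symbol and is listed as Tenc1, its older name, so it was read apart from the 57.

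RNA was measured in 6 libraries of parietal cells, which secrete gastric acid, and which were sorted from stomach by tdTomato fluorescence. The 3 noggin libraries came from mice of the labelled genotype Transgenic-Tom-nog, which carry H+/K+-Cre, H+/K+-Nog and Rosa26-tdTom, and the 3 control libraries from mice labelled Transgenic-Tom. Noggin binds bone morphogenetic proteins (BMPs) outside the cell and blocks them, and it was made here under the H+/K+ ATPase promoter of the parietal cells themselves, and the comparison asks what BMP signalling does in these cells. The sources used here give neither age, sex nor the number of animals behind a replicate, so the spread between replicates may be technical in part.

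Epithelial cells hold on to the basement membrane through 2 kinds of receptor. Integrins are pairs of an alpha and a beta chain that bind laminin, collagen or proteins with the peptide motif RGD, and their tails recruit talin, kindlin, vinculin, paxillin and focal adhesion kinase. Dystroglycan is a laminin receptor whose sugar chains bind laminin, agrin and perlecan and whose tail binds utrophin or dystrophin. The basement membrane itself is built from laminin trimers of an alpha, a beta and a gamma chain, from type IV collagen, nidogen and perlecan.

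All values are FPKM as the authors deposited them, which are scaled by transcript length, so that levels of different genes can be set side by side. The depth of the libraries is unknown, and only their number limits what is said of precision. Nog was at 2734, 2289 and 2281 FPKM in noggin replicates 1 to 3, against 1.97, 0.871 and 1.09 FPKM in control replicates 1 to 3. The parietal markers Atp4a and Atp4b, the subunits of the proton pump, were above 5000 FPKM in every library of both groups. Chief cell transcripts were abundant too, with a summed level of 131000 to 358000 FPKM in noggin libraries and 60900 to 112000 FPKM in control libraries over 7 markers. This sum was led by Clps and Pgc. Of the 7 markers, 2 were above all controls in each noggin library, as in 20.3% of all tested genes, and 0 were called. All 5 mucous neck cell markers rose, with sums of 10800 to 25900 FPKM in noggin libraries and 2460 to 3360 FPKM in control libraries. The 9 parietal markers summed to 29600 to 33500 FPKM in noggin libraries and 33600 to 40500 FPKM in control libraries, a sum led by Atp4b. Of the 9, 6 were below all controls in each noggin library, as in 18% of all tested genes, and 3 were called lower, as in 0.695%. Atp4b was above all controls in each noggin library, with a log2 fold change of 0.22 (limma adjusted p = 0.814), and Kcne2 and Ckb overlapped between groups. Atp4a averaged 6275 ± 1180 FPKM in noggin libraries and 14420 ± 1560 FPKM in control libraries, with a log2 fold change of -1.21 (limma adjusted p = 0.124). Clic6, a chloride channel protein, and Esrrg, an oestrogen-related receptor, had log2 fold changes of -1.42 and -1.19 (limma adjusted p = 0.0483 for each). The part of other cells, and of these parietal transcripts, in the results on adhesion genes was not tested. Noggin replicate 3 stood apart: it listed 542 of the 10644 tested genes at 0, whereas the other 5 libraries listed 19 to 34. Over the tested genes, the Spearman correlation of noggin replicate 2 was 0.911 and 0.846 with the other noggin libraries and 0.922 to 0.931 with the control libraries.

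Of the 57 genes, 26 reached 1 FPKM in at least 3 libraries and were tested. By limma on log2(FPKM + 1), with Benjamini-Hochberg adjustment over all 10644 tested genes, 1 of the 26 fell, Dag1, and 0 rose, at an adjusted p under 0.05. The share of all tested genes called was 0.695% in the lower and 1.75% in the higher direction. By unadjusted p under 0.05, 13 of the 26 were lower and 0 higher, where 10.9% of all tested genes were lower and 15.8% higher. The 26 had log2 fold changes below 0 in 21 cases, with a median of -0.79, while 51.7% of all tested genes were below 0, with a median of -0.03. In 16 of the 26 every noggin library was below every control library, as in 18% of all tested genes. In 0 of them was every noggin library above every control library, as in 20.3% of all tested genes. Tln2, which is among the 13, the 21 and the 16 above, passed the filter through its control libraries alone, which set its direction. A lower level in a sorted fraction can mean fewer expressing cells or less RNA per cell, and these cannot be told apart.

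The scale of the libraries and single libraries moved these counts. Rescaling every library to the same total shifted the median of all tested genes to -0.63 and that of the 26 to -1.38, and 10 of the 26 were then called lower, where 7.7% of genes were called lower and 1.22% higher. With quantile normalization Dag1 and Itga6 were called lower, 2 of 26, where 2.17% of genes were called lower and 2.28% higher. Without noggin replicate 3 the genes called lower were Col4a3, Dag1, Itga6, Itgav and Lamb2, 5 of 25 tested, where 2.29% of genes were called lower and 2.36% higher.

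Transcript length moved with these values. Across 10542 tested genes, which are not independent replicates, the log2 fold change and the longest annotated transcript had a Spearman correlation of -0.511, and 24 of the 26 adhesion genes have a longest transcript of at least 3000 bases. Among all 5733 tested genes of that length the median log2 fold change was -0.34, 1.06% were called lower, and 29.2% had every noggin library below every control library. Shorter genes went the other way. Of the 4809 tested genes under 3000 bases 163 were called higher and 13 lower, and 1675 had every noggin library above every control library, with a median of 0.33. In 20 of the 26 adhesion genes the log2 fold change lay below the median of the genes in the same length class. After a correction that removes the trend with the longest transcript from each library, the median of the 26 was -0.42 against -0.04 for all genes of at least 3000 bases, and 0 of the 26 were called, where 0.256% of genes were called lower and 0.854% higher. With the median annotated transcript as the length, the median of the 26 was -0.58 and 0 were called, where 0.493% of genes were called lower and 1.29% higher.

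**Figure D1:**
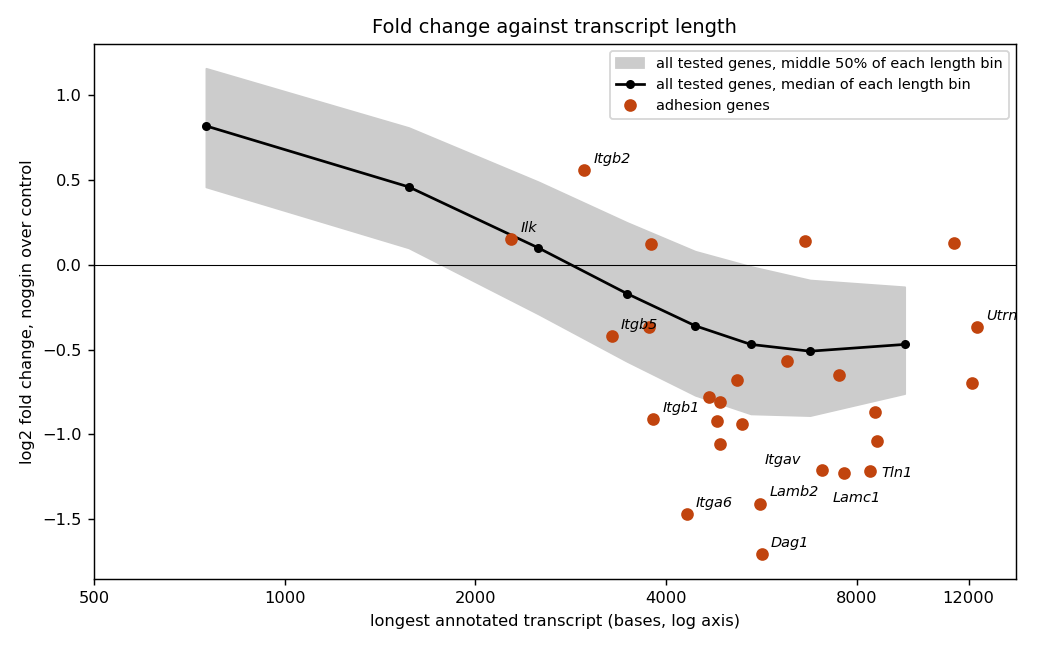
Log2 fold change of FPKM + 1, noggin over control (y axis), against the longest annotated transcript in bases (x axis, log scale). The line and band give the median and the middle 50% of all tested genes in each length class, and the points are the 26 tested adhesion genes, of which 20 lie below the median of their class.

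Dystroglycan, encoded by Dag1 (chromosome 9, 108204634 to 108263958, minus strand, mm10), had the highest level of the 57 genes in control libraries and ranked 4 in noggin libraries. Dag1 was at 12.3, 28.0 and 21.9 FPKM in noggin replicates 1 to 3, against 70.4, 63.8 and 66.0 FPKM in control replicates 1 to 3. Every noggin library was below every control library, and noggin replicate 1 was the lowest. The mean was 20.7 ± 7.93 FPKM in noggin libraries and 66.8 ± 3.36 FPKM in control libraries (SD, n = 3 each). This was a log2 fold change of -1.71 with an SE of 0.297 (limma adjusted p = 0.0401). Over 17 alternative settings the log2 fold change of Dag1 ran from -2.40 to -1.23 and the limma adjusted p from 0.0153 to 0.207, with the call kept in 7. The call ended without control replicate 1, 2 or 3 (limma adjusted p = 0.173, 0.152 and 0.207) and with correction by the longest transcript (-1.27, limma adjusted p = 0.0687), and it held without noggin replicate 3 (-1.79, limma adjusted p = 0.0438). Without control replicate 1, 2 or 3, 0 of all 10406, 10427 and 10393 tested genes were called lower, so the loss of the call there is not particular to Dag1.

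The intracellular partner of dystroglycan outside muscle, utrophin, was at far lower levels. Utrn was at 1.84, 1.48 and 2.77 FPKM in noggin replicates 1 to 3, against 2.73, 2.78 and 3.05 FPKM in control replicates 1 to 3. The groups overlapped through noggin replicate 3, and the log2 fold change of -0.37 (95% interval -1.07 to 0.34, limma adjusted p = 0.453) turned to 0.07 with correction by the longest transcript. Sgcb, beta-sarcoglycan of the same complex, was at 3.05, 2.15 and 9.71 FPKM in noggin libraries and at 3.01, 4.34 and 3.99 FPKM in control libraries, in replicate order. Its log2 fold change of 0.12 (95% interval -1.01 to 1.24) rested on noggin replicate 3, was -0.41 without that library and was -0.46 after rescaling to equal totals.

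Of the genes that act around dystroglycan, 14 belong to the dystrophin complex beyond the 3 above, and 7 of these were tested. None of the 7 was called by limma (2 lower and 0 higher at an unadjusted p under 0.05), and their median log2 fold change was -0.54. Sntb1, the adaptor beta-1 syntrophin, was at 0.746, 4.54 and 0 FPKM in noggin replicates 1 to 3, against 10.2, 11.2 and 8.94 FPKM in control replicates 1 to 3. Every noggin library was below every control library, with a difference of -2.38 on the log2 scale (SE 0.596, limma adjusted p = 0.0807). Dmd, dystrophin itself, averaged 0.954 ± 0.574 FPKM in noggin libraries and 2.54 ± 0.364 FPKM in control libraries (SD, n = 3 each), again with no overlap, and its log2 fold change of -0.90 was -0.47 with correction by the longest transcript. Sntb2, another syntrophin, had a log2 fold change of -0.54 that was -0.08 with correction by the longest transcript, and overlapped between groups.

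Enzymes that build the laminin-binding sugar of dystroglycan went both ways without a call. All 14 in the table were tested, 0 were called by limma (2 higher and 1 lower at an unadjusted p under 0.05), and the median log2 fold change was -0.25. Over all tested genes 15.8% were higher and 10.9% lower at that p. These shares stand beside this count and those of the other lists of related genes. Dpm2 and Dpm3, subunits of the dolichol-phosphate mannose synthase, had log2 fold changes of 1.08 (limma adjusted p = 0.0886) and 1.18 (limma adjusted p = 0.122). They were 0.55 and 0.32 with correction by the longest transcript, and 0.38 and 0.47 after rescaling. Pomt1, a protein O-mannosyltransferase, was at -0.84 (limma adjusted p = 0.248). In all 3 of these genes, named for their low p, the groups did not overlap. Among all tested genes 20.3% were higher and 18% lower without overlap.

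Promoter sequences are shown for the 3 tested adhesion genes with the lowest log2 fold changes among those in the RefSeq promoter table, which holds 38 of the 57 genes, so that the letters near their start sites can be read beside the values. Each runs from 250 bases before to 50 bases after the most upstream RefSeq start, 5′ to 3′ on the gene's strand, in GRCm38.p6. Dag1 is at chr9:108263909-108264208 on the minus strand, Lamb2 at chr9:108479612-108479911 on the plus strand and Tln1 at chr4:43562534-43562833 on the minus strand. Capitals would mark GGCGCC, a GC-rich element bound by BMP-activated Smads that reads the same on both strands, or AAGGTCA, or on the other strand TGACCTT, the core site of oestrogen-related receptors, which act in parietal cells.
Dag1: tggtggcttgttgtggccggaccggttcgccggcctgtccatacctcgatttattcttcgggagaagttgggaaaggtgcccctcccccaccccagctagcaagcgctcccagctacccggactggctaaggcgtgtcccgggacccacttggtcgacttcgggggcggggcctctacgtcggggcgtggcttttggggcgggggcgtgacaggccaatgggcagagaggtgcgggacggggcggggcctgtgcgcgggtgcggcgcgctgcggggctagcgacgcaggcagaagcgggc
Lamb2: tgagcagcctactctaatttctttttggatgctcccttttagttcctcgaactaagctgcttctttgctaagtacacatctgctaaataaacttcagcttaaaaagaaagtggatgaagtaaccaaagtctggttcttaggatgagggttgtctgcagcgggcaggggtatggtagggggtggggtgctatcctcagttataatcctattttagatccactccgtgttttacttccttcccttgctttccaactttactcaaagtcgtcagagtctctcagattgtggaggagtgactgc
Tln1: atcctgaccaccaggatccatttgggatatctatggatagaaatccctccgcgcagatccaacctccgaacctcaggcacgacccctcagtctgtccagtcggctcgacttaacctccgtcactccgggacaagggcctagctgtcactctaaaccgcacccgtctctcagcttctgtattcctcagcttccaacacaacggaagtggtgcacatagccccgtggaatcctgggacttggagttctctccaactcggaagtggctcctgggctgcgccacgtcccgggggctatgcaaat
None of these 3 windows holds either motif, so all letters are in lower case. GGCGCC was in 8 of the 38 adhesion gene promoters, 21.1%, and in 11.9% of all 32851 promoters of the table. Among the 17 tested adhesion genes with a promoter it was in 5, which are Agrn, Col4a1, Itgb1, Lama5 and Vcl. AAGGTCA was in 0 of the 38, and in 4.72% of all promoters. The 38 hold only the most upstream promoter of each gene, while the 32851 hold every promoter of a gene. For both motifs the shares are therefore of unlike sets. The GC content was 69.7% for Dag1, 44.0% for Lamb2 and 57.0% for Tln1.

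Among the laminin-binding integrin chains, Itga6 and Itgb1 were abundant, and every noggin library was below every control library in both. Itga6 (chromosome 2, 71745616 to 71858416), the alpha chain of the epithelial laminin receptors, was at 16.1, 22.9 and 7.63 FPKM in noggin replicates 1 to 3, against 38.8, 41.2 and 43.7 FPKM in control replicates 1 to 3. Its mean was 15.6 ± 7.66 FPKM in noggin libraries and 41.2 ± 2.46 FPKM in control libraries (SD, n = 3 each). The log2 fold change was -1.47 (SE 0.365, limma adjusted p = 0.0791), past the threshold without noggin replicate 3 (-1.06, limma adjusted p = 0.0470), and it was -1.18 with correction by the longest transcript.

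Itgb1 (chromosome 8, 128685654 to 128733200), the beta chain shared by most matrix-binding integrins, was at 23.2, 45.1 and 23.1 FPKM in noggin replicates 1 to 3, against 52.5, 55.3 and 57.9 FPKM in control replicates 1 to 3. Noggin replicate 2 lay nearest to the control libraries, and the log2 fold change was -0.91 (95% interval -1.56 to -0.25, limma adjusted p = 0.111). Itgb4, which pairs only with the Itga6 product and anchors hemidesmosomes, was at 4.65, 5.77 and 4.07 FPKM in noggin libraries and at 10.6, 5.81 and 6.96 FPKM in control libraries, in replicate order. The gap between the groups was narrow, with a log2 fold change of -0.57 (95% interval -1.32 to 0.18) that became -0.11 with correction by the longest transcript. Itga3, another alpha chain of epithelial laminin receptors, was at 10.5, 6.29 and 0.902 FPKM in noggin libraries and at 9.17, 7.79 and 8.54 FPKM in control libraries. These groups overlapped, and the log2 fold change of -0.81 (95% interval -2.25 to 0.64) was -0.05 without noggin replicate 3 and -0.42 with correction by the longest transcript. Itga7, a laminin receptor chain best known from muscle, stayed under 1 FPKM in all 6 libraries and was not tested.

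Integrin chains that bind RGD proteins included the partners of the alpha v chain. Itgav (chromosome 2, 83724397 to 83806916), which encodes alpha v, was at 2.87, 3.38 and 2.44 FPKM in noggin replicates 1 to 3, against 6.94, 8.80 and 8.24 FPKM in control replicates 1 to 3. All noggin libraries were below all control libraries. The log2 difference was -1.21 (SE 0.288, limma adjusted p = 0.0743), and it was -1.12 without noggin replicate 3 (limma adjusted p = 0.0435) and -0.74 with correction by the longest transcript.

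Itgb6, the epithelial partner of alpha v in the receptor that activates TGF-beta, was at 7.28, 12.5 and 9.89 FPKM in noggin replicates 1 to 3, against 21.7, 17.3 and 19.0 FPKM in control replicates 1 to 3. Its groups did not overlap, and the log2 fold change was -0.92 (95% interval -1.55 to -0.30, limma adjusted p = 0.101). It was -0.55 with correction by the longest transcript. Itgb5, the vitronectin-binding partner, was at 28.6, 25.5 and 28.9 FPKM in noggin libraries and at 42.3, 31.7 and 38.9 FPKM in control libraries, in replicate order. Noggin libraries were below control libraries here too, with a log2 fold change of -0.42 (95% interval -0.88 to 0.04, limma adjusted p = 0.216). Itga5, Itga8, Itgb3 and Itgb8 were under 1 FPKM in every library, with a highest value of 0.758 FPKM.

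**Figure D2:**
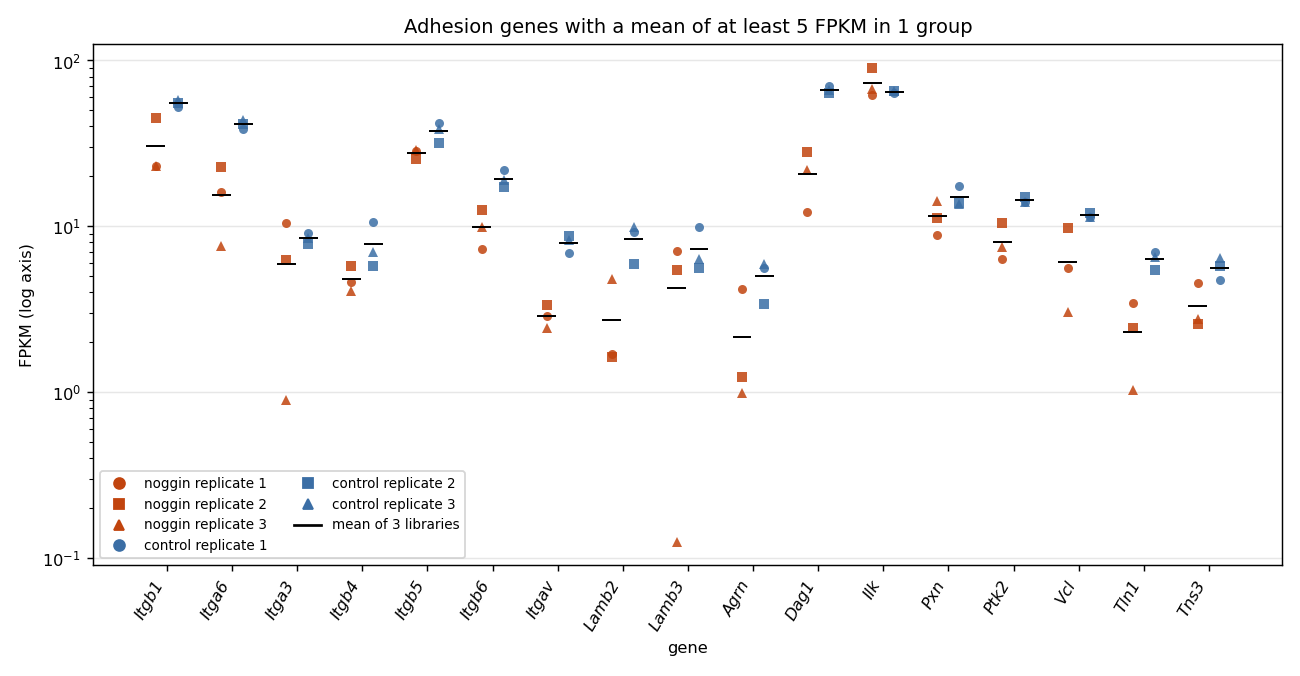
FPKM (y axis, log scale) of the 17 adhesion genes that average 5 FPKM or more in 1 group, in 3 noggin and 3 control libraries. Points are libraries, with 1 shape per replicate number, and bars are means. Dag1 sits at 12.3 to 28.0 FPKM in noggin libraries, all below its 63.8 to 70.4 FPKM in control libraries, and the Ilk libraries overlap.

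Within a library, scaling to a total cancels out of a share, so the makeup of the integrin families was also read as shares. Summed over the alpha chains, the level was 34.7, 38.7 and 12.8 FPKM in noggin replicates 1 to 3, against 58.1, 60.5 and 62.9 FPKM in control replicates 1 to 3. Itga6 gave 46.4%, 59.3% and 59.4% of this sum in noggin libraries, and 66.8%, 68.2% and 69.5% in control libraries. It was the leading alpha chain in all 6 libraries, at a lower share in every noggin library than in any control library. The Itga3 share was 30.3%, 16.3% and 7.02% in noggin libraries and 12.9% to 15.8% in control libraries, so noggin libraries lay on both sides of the control range. Among beta chains, Itgb1 led in noggin replicate 2 and in all 3 control libraries, and Itgb5 led in noggin replicates 1 and 3. The Itgb6 share was 11.1% to 13.5% in noggin libraries and 15.2% to 16.8% in control libraries. These shares are given without a test, and the trend with transcript length need not cancel in them.

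**Figure D3:**
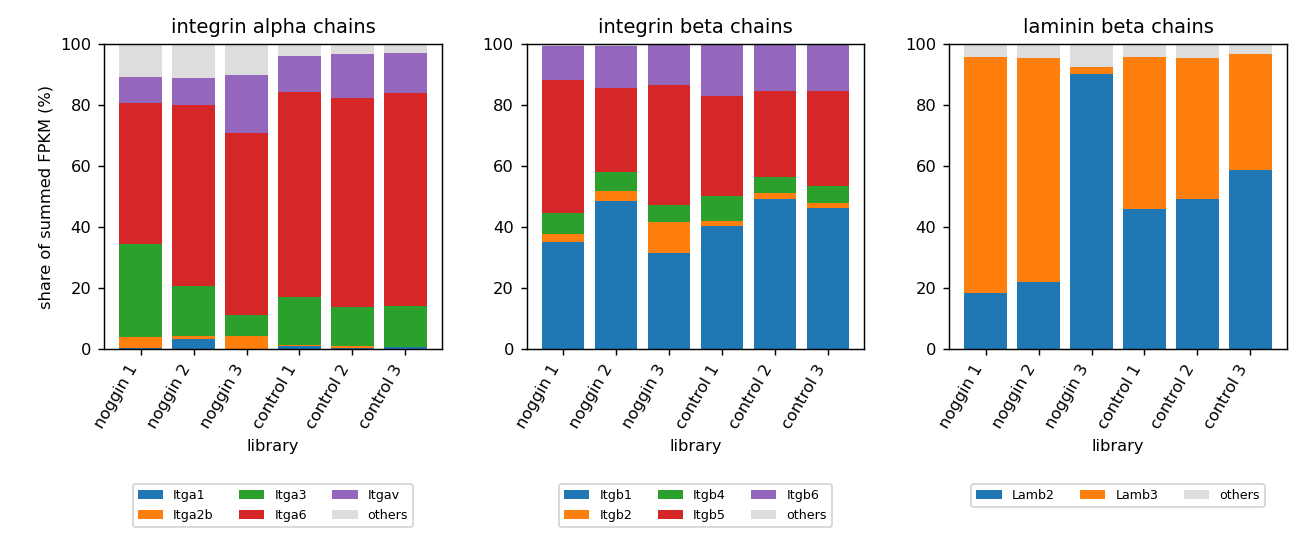
Share of summed FPKM in percent (y axis) held by each chain within the integrin alpha, integrin beta and laminin beta families, for each of 3 noggin and 3 control libraries (x axis). Chains that stay under 1 FPKM in every library are pooled as others. The Itga6 share is 46.4% to 59.4% in noggin libraries and 66.8% to 69.5% in control libraries, and the laminin panel shows noggin replicate 3 apart from the other noggin libraries.

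Integrins of blood cells and the chains that fit no group above were low, and only Itgb2 could be tested. Itgb2, the beta chain of leukocyte integrins, was at 1.52, 3.24 and 7.51 FPKM in noggin replicates 1 to 3, against 2.15, 2.04 and 1.95 FPKM in control replicates 1 to 3. The groups overlapped, and the log2 fold change of 0.56 (95% interval -0.50 to 1.63) was 0.10 without noggin replicate 3. Summed over 12 leukocyte markers the level was 21.4 to 102 FPKM in noggin libraries, highest in noggin replicate 3, and 1.64 to 2.87 FPKM in control libraries. In 7 of the 12 markers every noggin library was above every control library, while 1, Fcer1g, was called and 4 were under 1 FPKM in all 6 libraries. Of the 7, Ptprc, Lyz2 and Emr1 were not tested, so the 20.3% of all tested genes is no like share. The others, Cd52, Fcer1g, Tyrobp and Laptm5, passed the filter through their noggin libraries alone. Their direction and lack of overlap thus followed from the filter. Ptprc, the pan-leukocyte phosphatase CD45, was at 0.0493, 0.180 and 1.30 FPKM in noggin libraries and at most 0.0421 FPKM in control libraries, and the part of these cells in the Itgb2 level was not tested.

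Itga2b, the alpha chain of the platelet fibrinogen receptor, did not pass the filter. It was at 1.30, 0.383 and 0.533 FPKM in noggin replicates 1 to 3, against 0.206, 0.260 and 0.0438 FPKM in control replicates 1 to 3. All noggin libraries were above all control libraries. The 5 platelet markers summed to 1.68 to 5.94 FPKM in noggin libraries and 0.642 to 0.982 FPKM in control libraries, with Ppbp listed at 0 in all controls. Mast cell markers, 9 in number, summed to 186 to 284 FPKM in noggin libraries and 37.4 to 63.3 FPKM in control libraries. Of these, 5 were above all controls in each noggin library, as in 20.3% of all tested genes. All 5, Cpa3, Mcpt1, Mcpt2, Tpsb2 and Cma1, were called higher, as were 1.75% of all tested genes. Their log2 fold changes were at least 3.21, with a limma adjusted p of at most 0.0312. Kit, most of the sum in each control library, was called lower. Kit fell to 8.79 ± 1.94 FPKM in noggin libraries, against 37.8 ± 5.40 FPKM in control libraries (log2 fold change -2.00, limma adjusted p = 0.0181). The part of either cell type in Itga2b was not tested. The other 8 chains of this group, Itga4, Itga9, Itgad, Itgae, Itgal, Itgam, Itgax and Itgb7, stayed under 1 FPKM in every library, and so did the collagen-binding chains Itga2, Itga10 and Itga11. Itga1, a collagen receptor chain, reached 1.35 FPKM in noggin replicate 2 and was at most 0.647 FPKM in the other 5 libraries.

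The sorted fraction held RNA for some of the laminin chains, and which of its cells carried it was not tested. Of 11 chains 5 were tested, 0 were called by limma (2 lower and 0 higher at an unadjusted p under 0.05), and 3 had every noggin library below every control library. The shares over all tested genes, 10.9% lower at that p and 18% without overlap, or 29.2% without overlap among transcripts of at least 3000 bases, stand beside these counts. Lamb2 (chromosome 9, 108479736 to 108490530), the laminin beta 2 chain, was at 1.70, 1.64 and 4.81 FPKM in noggin replicates 1 to 3, against 9.21, 5.94 and 9.86 FPKM in control replicates 1 to 3. Noggin replicate 3 lay closest to the controls. The log2 fold change was -1.41 (SE 0.410, limma adjusted p = 0.101), past the threshold without noggin replicate 3 (-1.78, limma adjusted p = 0.0331), and -0.97 with correction by the longest transcript.

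Lamb3, the beta 3 chain of epithelial laminin-332, was at 7.07, 5.49 and 0.126 FPKM in noggin replicates 1 to 3, against 9.95, 5.58 and 6.37 FPKM in control replicates 1 to 3. The groups overlapped, and the log2 fold change of -1.06 (95% interval -2.74 to 0.62) was -0.16 without noggin replicate 3 and -0.67 with correction by the longest transcript. Lamc1, the gamma chain found in most laminins, was at 1.04, 0.396 and 0.00595 FPKM in noggin libraries and at 3.02, 1.96 and 2.13 FPKM in control libraries, in replicate order. Every noggin library was below every control library, with a log2 fold change of -1.23 (limma adjusted p = 0.0981) that was -0.77 with correction by the longest transcript.

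Alpha laminin chains were near or under 1 FPKM in most libraries. Lama5, the common epithelial alpha chain, was at 3.23, 1.07 and 0.379 FPKM in noggin replicates 1 to 3, against 0.892, 1.03 and 1.42 FPKM in control replicates 1 to 3. The groups overlapped, and its log2 fold change of 0.13 (95% interval -0.89 to 1.14) turned to -0.25 after rescaling to equal totals and was 0.57 with correction by the longest transcript. Lama4, a chain of endothelial and other mesodermal basement membranes, was at 5.56 FPKM in noggin replicate 3 and at most 0.462 FPKM in the other 5 libraries. Pecam1, an endothelial and leukocyte surface protein, was likewise at 5.70 FPKM in noggin replicate 3 and at most 0.383 FPKM elsewhere, and its part in the Lama4 level was not tested. Cdh5, the endothelial cadherin, was listed at 0 in all 6 libraries, and 5 of 7 endothelial markers were under 1 FPKM in every library. Summed over the 7 the level was 22.4 to 35.0 FPKM in noggin libraries and 23.6 to 25.9 FPKM in control libraries, led by Plvap at 22.04 to 34.4 FPKM in noggin libraries and 23.5 to 25.4 FPKM in control libraries. Lama1, Lama2, Lama3, Lamb1 and Lamc3 were under 1 FPKM in every library, and Lamb1 was below all controls in each noggin library.

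Among type IV collagens, the chains that form the alpha 3, alpha 4, alpha 5 network were lower in noggin libraries without overlap. The same held for 18% of all tested genes and for 29.2% of those with transcripts of at least 3000 bases. Of these chains only Col4a3 was tested, and it was not called. Col4a3 was at 1.04, 0.899 and 2.34 FPKM in noggin replicates 1 to 3, against 2.68, 3.61 and 3.69 FPKM in control replicates 1 to 3. Its log2 fold change was -0.87 (SE 0.339, limma adjusted p = 0.155), and -1.13 without noggin replicate 3 (limma adjusted p = 0.0437). It was -0.41 with correction by the longest transcript (limma adjusted p = 0.522). Col4a4 and Col4a5 did not pass the filter. Col4a4 was at 0.128, 0.206 and 0.00581 FPKM in noggin libraries and at 1.02, 0.814 and 1.45 FPKM in control libraries, in replicate order. Col4a5 was at 0.432, 0.494 and 0.0144 FPKM in noggin libraries and at 0.994, 1.06 and 0.954 FPKM in control libraries. With no filter on low values their log2 fold changes were -0.90 and -0.63, and 0 of the 57 genes were called, where 0.0202% of 19818 genes were called lower and 0.0404% higher.

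The widespread alpha 1 and alpha 2 chains gave another picture. Col4a1 was at 0.631, 0.587 and 3.00 FPKM in noggin replicates 1 to 3, against 1.1, 0.713 and 1.17 FPKM in control replicates 1 to 3. The groups overlapped, with a log2 fold change of 0.14 (95% interval -0.83 to 1.1) that turned to -0.25 after rescaling and was 0.60 with correction by the longest transcript. Col4a2 was listed at 0 in noggin replicates 2 and 3, and was at 0.785 FPKM in noggin replicate 1 and at 0.241 to 0.486 FPKM in control libraries. Col4a6 was under 0.1 FPKM in every library.

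Among the other matrix proteins only Agrn was tested. Agrin, which binds dystroglycan and laminin, was at 4.22, 1.24 and 0.997 FPKM in noggin replicates 1 to 3, against 5.65, 3.41 and 5.96 FPKM in control replicates 1 to 3. Noggin replicate 1 overlapped with the controls, and the log2 fold change was -1.04 (95% interval -2.08 to -0.01, limma adjusted p = 0.186), or -0.58 with correction by the longest transcript. Hspg2, which encodes perlecan, Fn1, which encodes fibronectin, and Nid1, which encodes nidogen, were under 1 FPKM in every library, with a highest value of 0.892 FPKM. Fibroblast markers, 7 in number, were under 1 FPKM in every library, with sums of 0.0962 to 0.793 FPKM in noggin libraries and 0.00765 to 0.331 FPKM in control libraries.

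The cytoplasmic proteins differed among themselves. Ilk (chromosome 7, 105736592 to 105742925), integrin-linked kinase, ranked 1 among the 57 genes in noggin libraries and 2 in control libraries. It was at 62.3, 90.5 and 67.1 FPKM in noggin replicates 1 to 3, against 63.4, 65.8 and 65.8 FPKM in control replicates 1 to 3. The groups overlapped, and the log2 fold change of 0.15 (95% interval -0.30 to 0.61, limma adjusted p = 0.638) turned to -0.55 after rescaling, to -0.16 with quantile normalization and to -0.03 with correction by the longest transcript. Exons of Ilk overlap those of Taf10 on the other strand by up to 413 bases, Taf10 reached 390 FPKM, and the reads of these genes may not have been told apart.

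Ptk2, focal adhesion kinase, was at 6.33, 10.5 and 7.52 FPKM in noggin replicates 1 to 3, against 14.1, 15.1 and 14.1 FPKM in control replicates 1 to 3. Vcl, vinculin, was at 5.60, 9.72 and 3.07 FPKM in noggin libraries and at 11.4, 12.1 and 11.5 FPKM in control libraries, in replicate order. In both genes every noggin library was below every control library, with log2 fold changes of -0.78 (limma adjusted p = 0.128) for Ptk2 and -0.94 (limma adjusted p = 0.170) for Vcl. Both were past the threshold without noggin replicate 2, together with Dag1, Itga6, Itgav, Itgb1 and Itgb6, 7 of 26, where 7.99% of genes were called lower and 11.0% higher. With correction by the longest transcript Ptk2 was at -0.42 and Vcl at -0.52 (limma adjusted p = 0.373 and 0.462). Exon overlap with a gene on the other strand touched other members as well. Vcl shares up to 2090 exon bases with Ap3m1 on the other strand, which reached 18.2 FPKM, and Tln1 shares 91 with Creb3, which reached 86.3 FPKM.

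Tln1, talin 1, which activates integrins, was at 3.47, 2.44 and 1.03 FPKM in noggin replicates 1 to 3, against 7.05, 5.45 and 6.55 FPKM in control replicates 1 to 3. Tln2, its paralogue, was at 0.427, 0.433 and 0.170 FPKM in noggin libraries and at 1.22, 1.09 and 1.19 FPKM in control libraries. Tln2 passed the filter through its control libraries alone, so its direction and lack of overlap followed from the filter. Neither talin overlapped between groups, and the log2 fold changes were -1.22 for Tln1 (SE 0.373, limma adjusted p = 0.109) and -0.70 for Tln2 (SE 0.260, limma adjusted p = 0.146). With correction by the longest transcript they were -0.76 and -0.25 (limma adjusted p = 0.338 and 0.618), and quantile normalization gave -0.12 for Tln2.

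Pxn, the scaffold paxillin, was at 8.93, 11.3 and 14.3 FPKM in noggin replicates 1 to 3, against 17.5, 13.8 and 13.7 FPKM in control replicates 1 to 3. Its groups overlapped through noggin replicate 3, with a log2 fold change of -0.37 (95% interval -0.99 to 0.25), or -0.18 with correction by the longest transcript. Tns3, tensin 3, which links integrin tails to actin, was at 4.57, 2.59 and 2.75 FPKM in noggin libraries and at 4.72, 5.74 and 6.49 FPKM in control libraries. Its groups did not overlap, with a log2 fold change of -0.65 (95% interval -1.39 to 0.10) that was -0.18 with correction by the longest transcript. Tenc1, the older name of tensin 2, was at 11.8, 9.41 and 2.00 FPKM in noggin libraries and at 22.3, 21.2 and 24.9 FPKM in control libraries, with no overlap and a difference of -1.69 on the log2 scale (SE 0.524, limma adjusted p = 0.111).

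**Figure D4:**
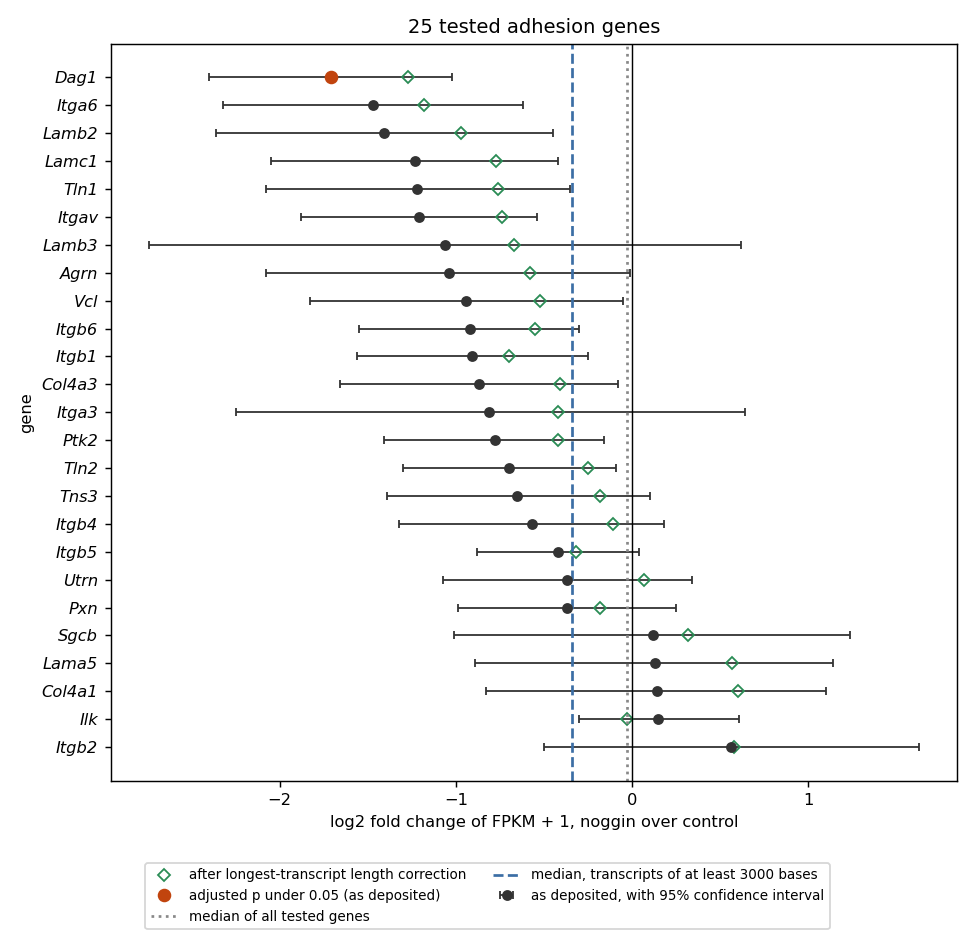
Log2 fold change of FPKM + 1, noggin over control (x axis), of 25 of the 26 tested adhesion genes (y axis), shown as filled points with 95% limma confidence intervals, and values after correction by the longest transcript as open diamonds. Dag1, at -1.71, is the gene past the adjusted threshold, and dashed and dotted lines give the medians of genes with transcripts of at least 3000 bases (-0.34) and of all tested genes (-0.03).

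Pairs of genes were also set against each other within each library, as the log2 ratio of FPKM + 1. The ratio of Ilk to Itgb1 was 1.39, 0.99 and 1.5 in noggin replicates 1 to 3, and 0.27, 0.25 and 0.18 in control replicates 1 to 3. That of Dag1 to Itgb1 was -0.87, -0.67 and -0.08 in noggin libraries and 0.42, 0.20 and 0.19 in control libraries, so Dag1 was below Itgb1 in every noggin library and above it in every control library. The trend with transcript length need not cancel in such a ratio, as the longest transcript has 2278 bases for Ilk and 3815 for Itgb1. Of 7 such ratios, all of chosen pairs, 5 did not overlap between groups, and the share over other gene pairs was not computed. The 2 that overlapped were Itgb6 over Itgb5, at -1.84 to -0.97 in noggin libraries and -0.99 to -0.83 in control libraries, and Lamb2 over Lamb3, at -1.58 to 2.37 in noggin libraries and -0.10 to 0.56 in control libraries. For Itga6 over Itgb1 the ratio was -0.50, -0.95 and -1.48 in noggin libraries and -0.43, -0.41 and -0.40 in control libraries. Its SD was 0.491 among noggin libraries and 0.0144 among control libraries. The coefficient of variation of the 26 tested genes had a median of 51.1% in noggin libraries and 13.6% in control libraries, while over all tested genes it was 42.2% in noggin libraries and 11.8% in control libraries. Noggin replicate 3 held the lowest of the 6 values in 13 of the 26 genes, noggin replicate 2 in 7 and noggin replicate 1 in 6.

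Other proteins of focal adhesions made a list of 31, of which 24 were tested. By limma 1 fell and 0 rose (6 lower and 1 higher at an unadjusted p under 0.05), with a median log2 fold change of -0.43. Over all tested genes 0.695% were called lower and 1.75% higher. Among transcripts of at least 3000 bases 1.06% were called lower, with a median of -0.34. With correction by the longest transcript the median of the list was -0.24. Tns1 (chromosome 1, 73910231 to 74124449), tensin 1, was at 5.79, 4.67 and 2.75 FPKM in noggin replicates 1 to 3, against 15.6, 18.2 and 22.8 FPKM in control replicates 1 to 3. All noggin libraries were below all control libraries, with a difference of -1.90 on the log2 scale (SE 0.321, limma adjusted p = 0.0362). The call of Tns1 was kept in 7 of 17 alternative settings. Among others, it ended with correction by the longest transcript (-1.45, limma adjusted p = 0.0777), without noggin replicate 1 (limma adjusted p = 0.0552) and without control replicate 1, 2 or 3 (limma adjusted p = 0.163, 0.167 and 0.221). Without each control library 0 of all tested genes were called lower. Dock1, a Rac exchange factor downstream of integrins, Fermt2, the integrin activator kindlin-2, and Git1, a scaffold that binds paxillin, had log2 fold changes of -1.77, -1.13 and -1.41 with no overlap and limma adjusted p of 0.0816, 0.0916 and 0.107.

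Basement membrane genes beyond those above, 15 of which 7 were tested, had 0 called by limma (2 higher and 2 lower at an unadjusted p under 0.05). Frem2, which stabilises epithelial basement membranes, averaged 1.88 ± 0.592 FPKM in noggin libraries and 6.62 ± 0.823 FPKM in control libraries (log2 fold change -1.42, limma adjusted p = 0.0640). Npnt, the ligand nephronectin, was at -0.98 (limma adjusted p = 0.161), or -0.63 with correction by the longest transcript. Smoc2, a secreted calcium-binding matrix protein, averaged 9.02 ± 2.61 FPKM in noggin libraries and 2.12 ± 1.39 FPKM in control libraries (log2 fold change 1.74, limma adjusted p = 0.0702). Col18a1, a basement membrane collagen, averaged 2.42 ± 0.684 FPKM in noggin libraries and 0.522 ± 0.0722 FPKM in control libraries (log2 fold change 1.15, limma adjusted p = 0.0816). All 4 had no overlap between groups. Col18a1 passed the filter through its noggin libraries alone, so its direction and lack of overlap followed from the filter. Frem2, Npnt and Smoc2, which did not pass in that way, also went both ways.

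Hemidesmosome genes and other laminin receptors, 8 of which 7 were tested, had 0 called by limma (2 higher and 2 lower at an unadjusted p under 0.05). Sdc4, the heparan sulphate receptor syndecan-4, averaged 45.8 ± 11.6 FPKM in noggin libraries and 79.7 ± 4.52 FPKM in control libraries. Dst, which encodes the hemidesmosome plakin BPAG1, averaged 2.12 ± 0.999 FPKM in noggin libraries and 4.99 ± 0.616 FPKM in control libraries. Their log2 fold changes were -0.81 (limma adjusted p = 0.0882) and -1.0 (limma adjusted p = 0.137). Cd151, the tetraspanin that associates with laminin-binding integrins, was at 35.3, 7.63 and 11.4 FPKM in noggin libraries and at 5.02, 4.41 and 5.26 FPKM in control libraries (log2 fold change 1.42, limma adjusted p = 0.138). Rpsa, a ribosomal protein also described as a laminin receptor, was at 0.87 (limma adjusted p = 0.0952). Correction by the longest transcript gave -0.59 for Dst and 0.56 for Rpsa, and rescaling gave 0.78 for Cd151 and 0.15 for Rpsa.

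Among soluble and cell-bound ligands of integrins some genes rose. Of 20 such genes 13 were tested, 2 rose and 0 fell by limma, and the median log2 fold change was -0.07. Over all tested genes 1.75% were called higher and 0.695% lower. The longest transcripts of Spp1, Vtn and Mfge8 have 1507, 1744 and 2330 bases. Among the 4809 tested genes under 3000 bases 163 were called higher and 13 lower, with a median of 0.33. Spp1 (chromosome 5, 104435118 to 104441050), osteopontin, an RGD protein bound by alpha v integrins, was at 1194, 941 and 777 FPKM in noggin replicates 1 to 3, against 307, 239 and 214 FPKM in control replicates 1 to 3. The log2 fold change was 1.93 (SE 0.241, limma adjusted p = 0.0181), and it stayed past the threshold with correction by the longest transcript (1.45, limma adjusted p = 0.0364). The call of Spp1 was kept in 13 of 17 alternative settings. Among others, it ended without control replicate 1, 2 or 3 (limma adjusted p = 0.101, 0.0805 and 0.136), and it held without each noggin library. Without control replicate 1, 2 or 3 only 2, 39 and 2 of all tested genes were called higher.

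Vtn (chromosome 11, 78499091 to 78502324), vitronectin, the RGD ligand of alpha v beta 5, was at 15.3, 36 and 64.1 FPKM in noggin replicates 1 to 3, against 3.21, 5.18 and 3.82 FPKM in control replicates 1 to 3. Every noggin library was above every control library, by 2.76 on the log2 scale (SE 0.490, limma adjusted p = 0.0426). The Vtn call was kept in 8 of 17 alternative settings. Among others, it ended with correction by the longest transcript (2.38, limma adjusted p = 0.0788) and without control replicate 1, 2 or 3 (limma adjusted p = 0.171, 0.125 and 0.201). In the fits without a control library 2, 39 and 2 of all tested genes were called higher. Mfge8, another RGD protein bound by alpha v integrins, averaged 137 ± 34.7 FPKM in noggin libraries and 57.5 ± 14.8 FPKM in control libraries (log2 fold change 1.23, limma adjusted p = 0.0631). Cdh1, E-cadherin, which the Itgae chain binds, averaged 120.4 ± 26.7 FPKM in noggin libraries and 201 ± 4.53 FPKM in control libraries (log2 fold change -0.76, limma adjusted p = 0.0903). After rescaling Mfge8 was at 0.53, and Cdh1 was at -0.44 with correction by the longest transcript. These 4 ligands are those of lowest p, and the other 9 tested ligands ran from -1.51 (Thbs1, thrombospondin 1) to 0.50 (Adam15, a membrane protease with an integrin-binding domain), with none called.

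**Figure D5:**
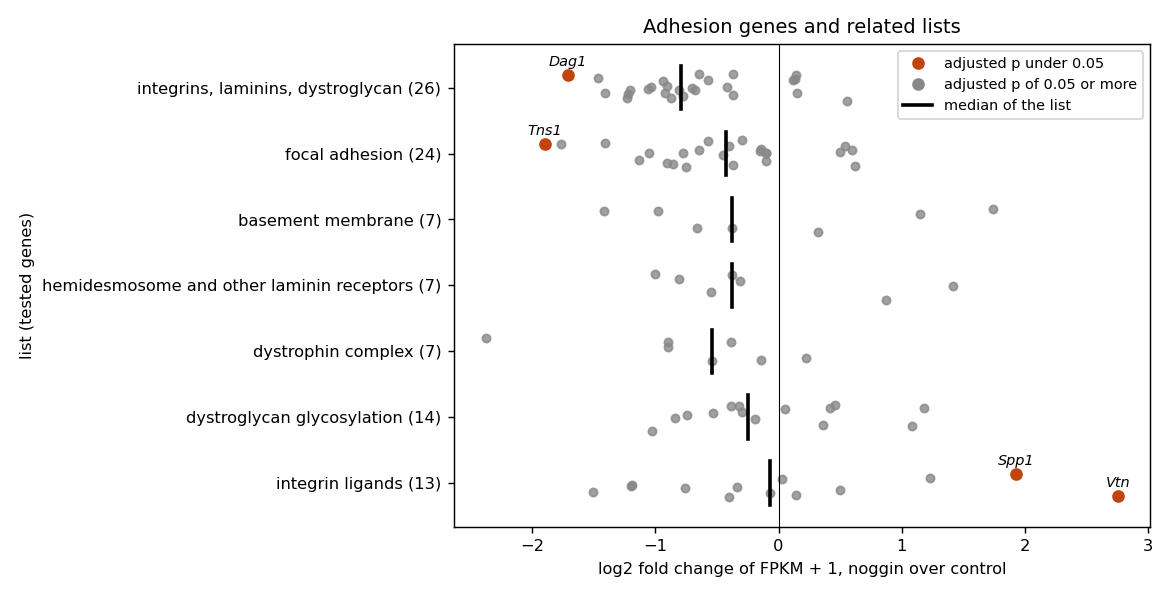
Log2 fold change of FPKM + 1, noggin over control (x axis), of each tested gene in the adhesion genes and in 6 related lists (y axis, number of tested genes in brackets). Bars are list medians, and the genes past the adjusted threshold are Dag1 and Tns1 on the lower side and Spp1 and Vtn on the higher side.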

How the data were processed

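Gene expression was measured in 3 noggin and 3 control libraries of sorted parietal cells. Per the labels' protocols, a minimum of 1 ng of total RNA went into SMART-Seq Ultra Low Input V3 libraries, sequenced from a single end to 50 bases, and whether strand was kept is not stated. The authors deposited FPKM per gene and library. Builds and tools named in the submitters' processing notes are mm10, bcl2fastq and FastQC 0.10.0. Not given in the sources used here: aligner, quantifier, annotation. FPKM keeps no read counts, so depth is unknown and no detection limit is given. Total FPKM was 797168 to 1188186 in noggin libraries and 595736 to 669124 in control libraries.

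Values were transformed to log2(FPKM + 1), which understates changes of low genes. The 10644 genes that reached 1 FPKM in 3 or more libraries were fitted by group with limma 3.58.1 (R 4.3.3, variance trend on), two-sided, with Benjamini-Hochberg adjustment over all tested genes and a threshold of 0.05. Intervals are 95% limma intervals, and ± gives the SD over 3 libraries. On simulated data for this comparison with 10644 genes, 4.6% of genes with a true log2 fold change of 1 and 45.6% of those with 2 were recovered, so a gene that was not called is not shown to be unchanged. The members and lists were chosen with earlier results of these data known. All tested members but 1 are named, with values in every library where a group averages 5 FPKM or more or after a call, and up to 4 genes of each related list, those called first and then by unadjusted p. Library values of other members, of Tenc1 and of markers were added after their values were seen. Results on 1 tested member and 2 genes of the related lists are not reported here. Coordinates and transcript lengths are from GENCODE M21 (GRCm38, the mm10 assembly), in which 20919 genes matched by symbol and 1914 by an older symbol. The length correction subtracts a lowess trend (span 0.3) on log2 length from the deviation of each library from the mean of all libraries. Its version with the longest transcript was added after seeing the data. Promoters are from RefSeq. Other alternatives were pseudocounts, filters, rescaling to equal totals, quantile normalization, no trend, a block for the replicate number and leaving out each library.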

Additional observations from a re-analysis of the deposited data

How the results depend on the processing

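Over 17 alternatives, 21 of the 26 tested adhesion genes kept the sign of their log2 fold change in every one in which they were tested, and 5 turned in at least 1; the cause was not tested. Ilk turned to -0.55 after rescaling, -0.16 with quantile normalization, -0.0025 with the length correction, -0.03 with the longest-transcript length correction, -0.0025 with block and length correction, and -0.01 without noggin replicate 2 (leaving out each library gave -0.01 to 0.26). Lama5 turned to -0.25, -0.13, -0.13 and -0.32 with rescaling, length correction, block with length correction and without noggin replicate 1 (each library left out: -0.32 to 0.49), Col4a1 to -0.25, -0.07 and -0.07 with the first 3 of these, and Sgcb to -0.46 after rescaling, -0.41 without noggin replicate 3 and -0.0032 without control replicate 1 (each library left out: -0.41 to 0.47). Utrn turned to 0.07 with the longest-transcript length correction, and Atp4b to -0.50, -0.56 and -0.33 with rescaling, quantile normalization and that correction.

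The number of adhesion genes called lower, 1, became 0 with a pseudocount of 0.1 or 0.01, no filter, no trend or either length correction, 10 after rescaling, which also moved the median of all tested genes to -0.63, and 2 with quantile normalization. Leaving out each library gave 0 to 7. The number was 0 for each control library, where 0 of all tested genes were called lower, and 7 for noggin replicate 2, where 7.99% were. The median of the adhesion genes, -0.79, was -1.03 and -1.04 with pseudocounts of 0.1 and 0.01, -0.08 with no filter, -1.38 after rescaling, -0.58 and -0.42 with the 2 length corrections, and -0.88 to -0.59 with each library left out. Over all tested genes, 186 higher and 74 lower became 85 and 26 with a pseudocount of 0.1, 72 and 21 with 0.01, 8 and 4 with no filter, 66 and 17 with no trend, 130 and 820 after rescaling, 243 and 231 with quantile normalization, 136 and 52 with the length correction, and 90 and 27 with its longest-transcript version. Leaving out each library gave 2 to 1144 higher and 0 to 832 lower. Of the related lists, 2 higher and 1 lower became 1 and 0 with either pseudocount, 0 and 0 with no filter, 1 higher with no trend, 2 and 15 after rescaling, 4 and 6 with quantile normalization and 1 and 0 with the longest-transcript length correction, and 0 to 7 higher and 0 to 11 lower with each library left out. Nog stayed called throughout.

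Same-numbered libraries of the groups had correlations of 0.105, -0.141 and 0.005 between their deviations from the group means. Libraries of unlike number had -0.129 to 0.12. These values give no sign that the numbers pair the libraries, and cannot show that they do not. A replicate block gave 128 higher and 32 lower genes, 110 and 32 with the length correction (median -0.58 for the adhesion genes), kept Dag1 called (limma adjusted p = 0.0374) without that correction and gave 0 adhesion genes with it, and gave 0 lower genes of the related lists both ways.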
